A study of Mus musculus with 14 samples.

Results

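The cartilage spots of a leg bone section from a mouse at postnatal day 8 (P8) are 108 of the 1085 spots of that section with enough genes to be kept, and the 14 sections of the series hold 15985 such spots. They were chosen by a readout. For each in-tissue spot with at least 1000 detected genes, the unique molecular identifier (UMI) counts of Col2a1 and Acan were added and divided by all UMIs of the spot, and the 10% of spots with the highest share were called cartilage. The reference was the 542 spots in the lower 50% of the same share, and the 435 spots between both classes entered neither. Because Col2a1 and Acan made the choice, both were left out of the totals and of every comparison between classes, and all differences between cartilage and reference spots are descriptions of 1 section with no test.

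The study mapped red blood cell formation in mouse blood-forming organs with 10x Genomics Visium, in which a tissue section lies on an array of barcoded spots and each spot captures RNA from a small region that can hold several cells or parts of cells. The section described here was the only one at this age. It came from a wild-type C57BL/6 mouse purchased from the Jackson Laboratory, and the bone was fixed in formalin and embedded in paraffin (FFPE). The study names the bone as a femur and states that this age was used to avoid RNA damage from decalcification. How many mice the section came from is not given, and with 1 section no spread between animals could be measured.

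Cartilage is built by chondrocytes, cells that lay down a matrix of type II collagen filled with the large proteoglycan aggrecan and that have no blood vessels around them. In a growing long bone the cartilage at each end holds resting cells near the joint, then columns of dividing flat cells, then prehypertrophic cells that secrete Indian hedgehog (Ihh), and last hypertrophic cells that make type X collagen beside the newly forming bone and marrow. Indian hedgehog and parathyroid hormone-related protein (Pthlh) form a loop that sets how far from the joint chondrocytes stop dividing and enlarge. At the joint itself, superficial chondrocytes secrete the lubricant lubricin, the product of Prg4.

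The 2 genes that made the choice gave the following shares. Col2a1 and Acan together took 14.2% of UMIs in the lowest, 20.3% in the median and 34.1% in the highest cartilage spot. In the reference spots the same 3 values were 0.0997%, 0.366% and 1.10%. The last spot inside the class had a share of 14.248% and the first outside had 14.181%, and 240 spots lay between 5% and this limit, so the class is the upper end of a continuous range. Nearly all of the share came from Col2a1, which encodes the type II collagen chain and took 13.0 to 33.6% of the UMIs of a cartilage spot, whereas Acan, which encodes the aggrecan core protein, took 0.176 to 1.77%.

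The section held 1094 in-tissue spots with 21985060 UMIs. Cartilage spots were shallower than reference spots, with a median of 11085.5 against 26893.5 UMIs and 3498 against 6328.5 genes per spot. After each spot was thinned to 2000 UMIs the medians were 1009.5 and 1104.5 genes. Without the rule genes, the cartilage spots summed to 1100130 UMIs and the reference spots to 15745564. Values below are counts per 1000000 UMIs of these sums (CPM), given per spot or over the pooled spots of a class. Ratios carry exact 95% intervals that cover counting error only, and since a spot is a mixture, fewer cells of a type and less RNA per cell cannot be told apart.

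The cartilage spots lay toward both ends of the section. They formed 7 connected pieces, of which 4 held at least 8 spots. The largest, with 42 spots, occupied array rows 41 to 48 and columns 110 to 127. The next, with 38 spots, lay in rows 22 to 32 and columns 119 to 127, and a piece of 15 spots beside it covered rows 26 to 30 and columns 106 to 117. A single piece of 8 spots lay at the opposite end of the section, in rows 11 to 14 and columns 7 to 13. The other 5 spots formed 3 small pieces in rows 19 to 25 and columns 97 to 105.

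**Figure D1:**
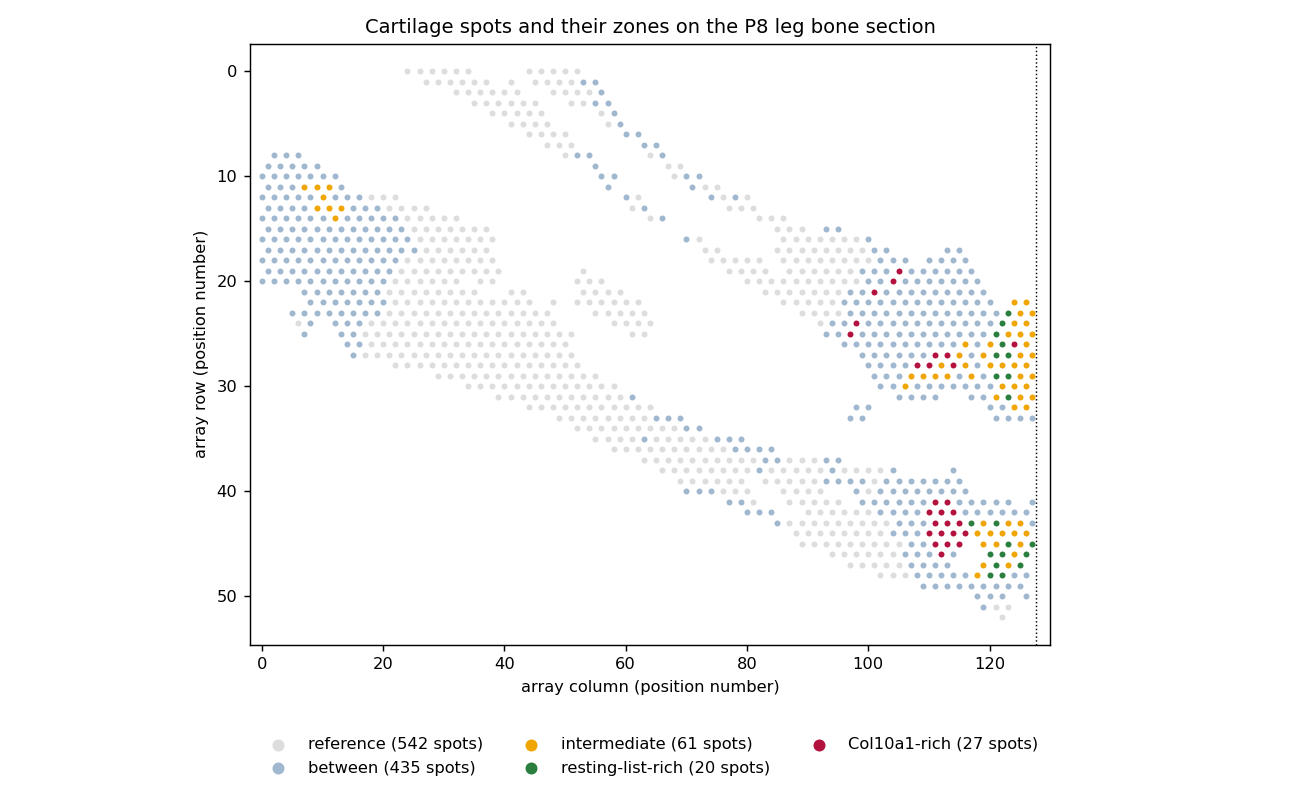
Passing spots of the P8 leg bone section by array column (horizontal) and row (vertical), coloured by class, with the dotted line after the last array column. The 108 cartilage spots form 7 pieces, and 14 of them lie in the last 2 columns of the array.

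Neighbouring positions of a cartilage spot were mostly cartilage too. Each position has 6 neighbours on the hexagonal array, and of the 604 pairings of a cartilage spot with an adjacent passing spot, 438 (72.5%) were with another cartilage spot and 0 with a reference spot. Only 29 cartilage spots were surrounded by 6 others, and 1 had no cartilage neighbour. The nearest reference spot was a median of 8 array steps away, with a range of 2 to 18. The last 2 columns of the array held 14 cartilage spots, 11 of them in the piece of 38 spots, so the right-hand cartilage reached the edge of the capture area. At the opposite end, 119 of the 245 passing spots in columns 0 to 30 had a share between 4% and the limit.

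Within the tissue, signal of the matrix genes declined over distance outside the class. Col2a1 and Acan together took 9.24% of the pooled UMIs at 1 step from the nearest cartilage spot, 4.84% at 2 steps, 3.48% at 3 steps and 0.394% at 13 or more. Col9a1, a type IX collagen chain that the rule did not use, followed with 10093, 5325, 4147 and 410 CPM over the same distances. Hbb-bs, an adult beta-globin chain of red cells, ran the other way, from 7156 CPM at 1 step to 67268 CPM at 13 or more. The 3897 positions that the tissue mark puts off tissue also held UMIs, with a median of 638 per spot, and Col2a1 and Acan made up 3.1% of them. Off tissue the level did not decline steadily, with Col9a1 at 6168 CPM at 2 steps, 7458 at 3 and 10245 at 4 to 6. RNA spread and tissue outside the mark cannot be told apart in these positions, 1 of which held 72277 UMIs. The part of spread RNA in the low values of marrow genes in cartilage and of cartilage genes in the reference was not tested.

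Proportions between genes were compared across the classes. For every 100 UMIs of Col2a1 there were 10.1 of Col9a1 in cartilage spots, 11.1 in reference spots and 11.6 off tissue. Fmod, which encodes the small proteoglycan fibromodulin of cartilage and tendon, changed more, with 2.34, 8.93 and 3.93 per 100. For every 100 UMIs of Hbb-bs there were 33.2 of the alpha-globin gene Hba-a2 in cartilage, 30.9 in reference and 31.6 off tissue. Ctsk, which encodes the osteoclast protease cathepsin K, stood at 8.08, 4.57 and 4.14 per 100. Pf4, which encodes platelet factor 4 of megakaryocytes, stood at 1.73, 0.768 and 0.828 per 100. The proportions of Col9a1 and Hba-a2 thus differed less across the classes than those of Fmod, Ctsk and Pf4.

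Of 13829 genes with at least 10 UMIs in both classes together, 2057 were at least 2-fold higher in cartilage spots with an interval that excluded 1 (14.9%), and 2075 were at least 2-fold lower (15%). These calls rest on counting error within 1 section. The median ratio over all genes tested was 1.01, and 762 tested genes had no UMI in cartilage spots. The gene lists that follow are read beside these shares, and since the class was picked on the same counts, they describe it and support nothing. The size of a ratio depended on the reference: against all other passing spots, the ratio of Col9a1 was 16.8 in place of 65.2, that of the matrix protein list 11.7 in place of 37.7 and that of the erythroid list 0.0979 in place of 0.0839.

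Structural genes of cartilage matrix led the class. Of the 6 other cartilage collagens 5 were higher, with a summed level 23.4-fold that of the reference (95% interval 23.1 to 23.7). The 3 chains of type IX collagen, which coats type II fibrils, had the highest ratios of this list. Col9a1 ranged from 9312 to 51595 CPM with a median of 28121 over cartilage spots, and from 57.4 to 2202 with a median of 385 over reference spots, a ratio of 65.2 (63.5 to 67.0). No reference spot reached the lowest cartilage spot. Col9a3 had a ratio of 62.9 (60.7 to 65.2) and Col9a2 of 56.8 (54.7 to 59.0), both again without overlap. Col27a1, a minor fibrillar collagen, was 26.4-fold higher and Col11a2, a chain of type XI collagen inside the fibrils, 8.84-fold. Col11a1, its partner chain, was at 1.56 (1.46 to 1.66) and passed no limit.

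All 18 genes of the list of proteoglycans and other matrix proteins were higher, with a summed level of 37.7-fold (37.1 to 38.4). Cnmd encodes chondromodulin, a cartilage protein that holds off vessels. Its CPM ranged from 677 to 8332 over cartilage spots with a median of 2871, against 0 to 447 with a median of 36.9 over reference spots, and the ratio was 68.4 (63.1 to 74.2). Matn1, which encodes the cartilage adaptor protein matrilin, ranged from 420 to 13812 CPM against 0 to 320, and its ratio was 62.6 (58.3 to 67.2). Hapln1, which encodes the link protein that ties aggrecan to hyaluronan, ranged from 922 to 18310 CPM against 0 to 821. Comp, the pentameric matrix protein thrombospondin 5, ranged from 2632 to 23230 CPM against 0 to 2116. For these 4 genes, as for the type IX chains, every cartilage spot stood above every reference spot. The classes are opposite ends of a share of matrix genes, and the share of all tested genes that separate in this way is not given. The separation is therefore a description only. The ratio was 42.1 (40.0 to 44.4) for Hapln1 and 40.7 (39.2 to 42.2) for Comp.

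The gene with the highest ratio among all with at least 100 UMIs was Ucma, which encodes a secreted protein of upper zone chondrocytes, at 95.5 (81.5 to 112). It ranged from 0 to 3897 CPM over cartilage spots with a median of 975, and from 0 to 168 over reference spots with a median of 0. Thus 101 of the 108 cartilage spots exceeded all 542 reference spots and 3 held no UMI of it. Prg4, the lubricin gene, followed at 82.0 (61.4 to 111), from 0 to 3291 CPM with a median of 119 in cartilage. Unlike Ucma it was patchy, with 39 cartilage spots at 0 and only 13 above the highest reference spot. The remaining matrix genes among the top 25 were Mia at 71.6, Scrg1 at 68.0, Clec3a at 66.9, Matn3 at 59.9, Epyc at 54.8, Chadl at 54.0 and Snorc at 46.8. Mia and Clec3a encode secreted cartilage proteins, Epyc encodes the small proteoglycan epiphycan and Snorc a membrane proteoglycan of chondrocytes. Genes outside the lists in the same rank were Ppp1r1b at 58.7, the transcription factor gene Pou3f3 at 58.3, Meltf at 54.1, Calml3 at 52.3, Ncmap at 51.7, Kctd4 at 49.6, Efcab1 at 47.9 and Ifitm10 at 39.4. The fewest UMIs in cartilage spots were 77 for Efcab1, 97 for Kctd4 and 121 for Ifitm10.

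**Figure D2:**
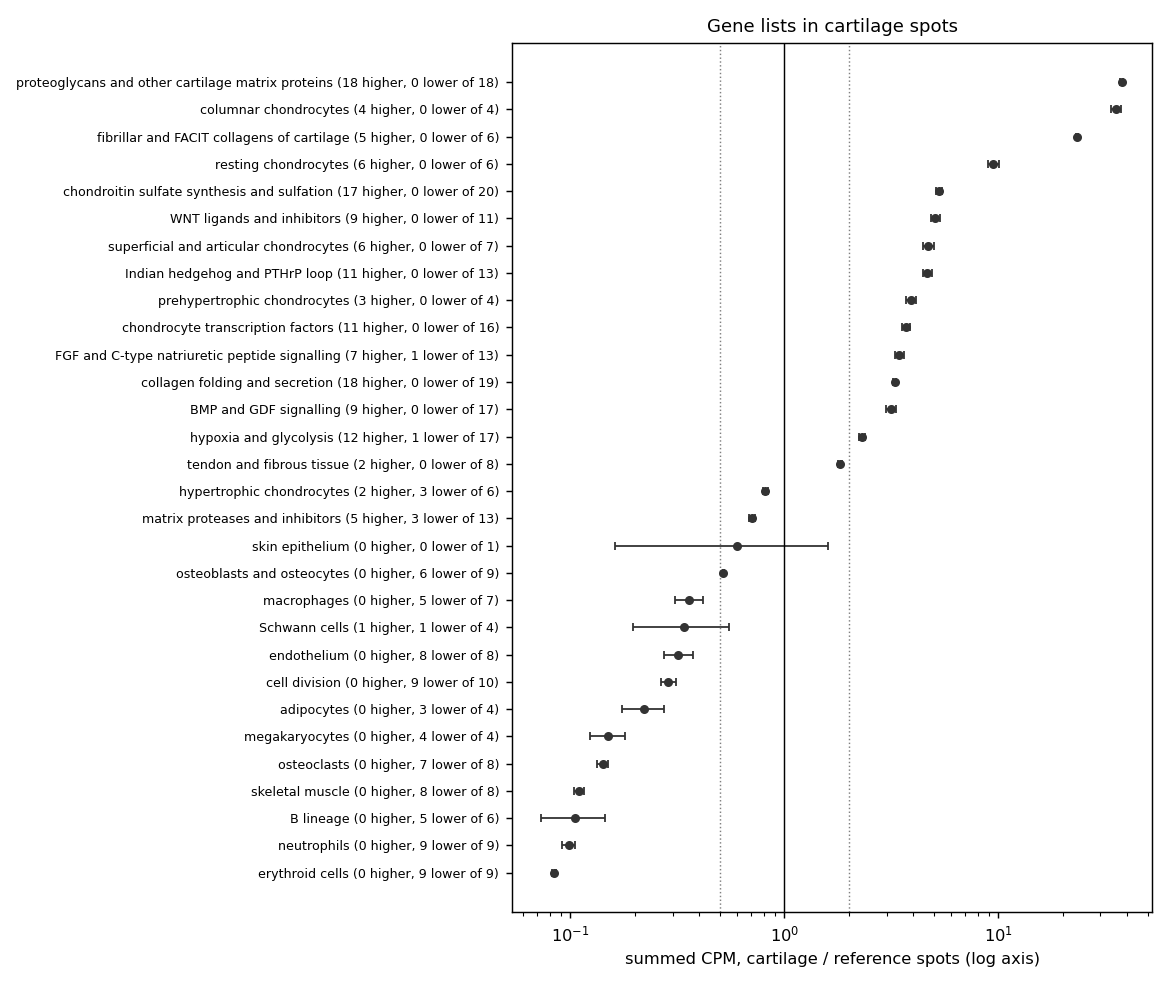
Summed CPM of each of the 30 gene lists in cartilage spots divided by that in reference spots (log axis), with exact 95% intervals for counting error and dotted lines at 2-fold, and with the number of members higher and lower in each label. Cartilage matrix lists stand highest at 37.7 and 23.4, with the columnar list at 35.4, and erythroid cells stand lowest at 0.0839.

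Genes that build the sugar chains of aggrecan and fold its collagen partners were higher as well. Of 20 genes for chondroitin sulfate synthesis and sulfation 17 were higher and 0 lower, with a summed ratio of 5.26 (5.09 to 5.44). Xylt1, the xylosyltransferase that starts each chain on the core protein, was 19.8-fold higher, and the chain-starting enzyme gene Csgalnact1 was 14.8-fold higher. Papss2, which makes the sulfate donor, had a ratio of 15.1 (13.2 to 17.2), Chst11, a chondroitin sulfotransferase gene, one of 10.4 and the sulfate transporter gene Slc26a2 one of 6.06. B3gat3, Csgalnact2 and Xylt2 passed no limit. Of 19 genes for collagen folding and secretion 18 were higher, with smaller ratios and a sum of 3.27 (3.21 to 3.34). P4ha2, a collagen prolyl hydroxylase subunit, had a ratio of 7.48, the lysyl hydroxylase Plod2 one of 6.45, the secretory pathway factor Creb3l2 one of 5.78 and the collagen chaperone Serpinh1 one of 2.47.

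Among 16 transcription factors of chondrocytes 11 were higher and 0 lower. Sox9, the master regulator of cartilage, ranged from 169 to 2784 CPM over cartilage spots with a median of 929 and from 0 to 287 over reference spots with a median of 17.5. Its ratio was 33.9 (30.3 to 37.9), and 102 of 108 cartilage spots stood above all reference spots. Sox5, which acts with Sox9, had a ratio of 41.7 (29.6 to 59.6), whereas Sox6, the other partner, which erythroid cells also express, was at 1.94 (1.62 to 2.30) and passed no limit. Foxa2 and Foxa3, forkhead factors of hypertrophic differentiation, had ratios of 88.3 (36.9 to 256) and 76.8 (39.9 to 162) from only 37 and 59 UMIs in cartilage. Barx1, a homeobox gene of joint cartilage, was at 68.5 (38.1 to 132) and Nkx3-2, which holds back maturation, at 15.9. Runx2, which drives hypertrophy and bone formation, was at 1.01 (0.848 to 1.20) and Mef2c at 1.14.

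The signalling lists were also higher in sum. Of the 13 genes of the Indian hedgehog and PTHrP loop 11 were higher and 0 lower. Ihh, the ligand, had 353 UMIs in cartilage and a ratio of 32.2 (26.6 to 39.1), but 79 of the 108 spots held none. Its receptor Ptch1 and its target Gli1 had ratios of 4.50 and 5.72. Pthlh, the ligand of the other arm, rested on 13 UMIs at a ratio of 7.16 (3.38 to 14.4), and its receptor Pth1r stood at 4.4 (4.06 to 4.76). Fgfr3, the receptor that slows chondrocyte division, was 14.7-fold higher. In its list of FGF and C-type natriuretic peptide genes 7 of 13 were higher and Dusp6, a target that dampens the pathway, was lower at 0.490.

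Of 17 tested BMP and GDF genes 9 were higher and 0 lower. Gdf5, a ligand of joint-forming cells, was at 22.6, the antagonists Grem1 and Nog at 16.8 and 12.1, and the ligand Bmp6 at 8.65. Of 11 WNT genes 9 were higher. Among the secreted inhibitors Sfrp5 was at 31.2, Frzb at 17.4, Sfrp1 at 9.66 and Wif1 at 3.1. The ligand genes Wnt5b and Wnt11 were higher too, and Wnt5a and Wnt9a passed no limit. Of 17 hypoxia and glycolysis genes 12 were higher, among them the mitophagy gene Bnip3 at 15.2, the glucose transporter Slc2a1 at 14.8, the carbonic anhydrase Car9 at 12 and the vessel growth factor Vegfa at 2.22. Slc2a3, a second glucose transporter gene, was lower at 0.136 with 6 UMIs in cartilage. The mixed list of proteases and inhibitors had a ratio of 0.705, with 5 of 13 higher, such as Htra1 at 2.87, and 3 lower, Mmp9, Mmp13 and Adamts5.

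Lists of other cell types were mostly lower, and none of their summed levels was at zero in the class. All 9 erythroid genes were lower, with a sum of 0.0839 (0.0821 to 0.0858) that ranged from 2190 to 35266 CPM over cartilage spots and from 2404 to 317505 over reference spots. Hbb-bs was 12.2-fold lower, at 1637 to 24186 CPM with a median of 4041 against a reference median of 32514, and the ranges overlapped. Alas2, the enzyme that starts heme synthesis in red cell precursors, was 10.9-fold lower. All 9 neutrophil genes were lower with a sum of 0.0979, including S100a8 at 11.8-fold, and 5 of 6 genes of the B lineage with a sum of 0.105. All 4 megakaryocyte genes (0.150), all 8 endothelial genes (0.320), 5 of 7 macrophage genes (0.357) and 3 of 4 adipocyte genes (0.220) were lower too. Vpreb1, a surrogate light chain gene of B cell precursors, and Calcr, an osteoclast receptor gene, held no UMI in cartilage spots.

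Bone and muscle lists were lower as well. Of 8 osteoclast genes 7 were lower with a sum of 0.141 (0.133 to 0.150), among them Acp5 at 9.48-fold and Ctsk at 6.89-fold. All 8 genes of skeletal muscle were lower with a sum of 0.110, and Acta1, skeletal alpha actin, was 9.70-fold lower. Of 9 osteoblast and osteocyte genes 6 were lower, including Bglap, which encodes osteocalcin, at 8.19-fold and the osteocyte gene Dmp1 at 11.3-fold. The sum of that list was 0.518 (0.514 to 0.522) because Col1a1 and Col1a2, the type I collagen chains, made up most of its counts and stood at 0.520 and 0.546. Col1a1 ranged from 4551 to 175883 CPM in cartilage spots and from 7294 to 221968 in reference spots. In the tendon and fibrous list only Tnmd and Mkx were higher of 8, with a sum of 1.82, in the Schwann cell list the myelin gene Mbp was lower, and of the skin keratins only Krt10 had enough UMIs to be tested and passed no limit.

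Cell division genes were lower too, with 9 of 10 below 0.5 and a sum of 0.287 (0.265 to 0.311). Mki67, a marker of cycling cells, ranged from 0 to 697 CPM over cartilage spots with a median of 154 and from 0 to 1773 over reference spots with a median of 461, a 4.01-fold difference. The reference also held high marrow and muscle lists and bone-forming spots, and the part of these in the difference was not tested. The 10 genes with the lowest ratio all had 0 UMIs in cartilage spots. Against a floor of 3 UMIs over the class, Serpina3g was at least 16.6-fold lower, Gm867 at least 10.3-fold and Fcna, a lectin gene of macrophages, at least 7.9-fold. The bounds for Slc6a20a, Padi4, Asb2, F2rl2 and Btk lay between 5.12-fold and 6.89-fold. Padi4 is a neutrophil enzyme and Btk a kinase of B and myeloid cells.

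Zones were described within the 108 spots by scores. The 27 spots (25%) with the highest Col10a1 share were called Col10a1-rich, since type X collagen is the defining product of hypertrophic chondrocytes. Of the others, the 20 with the highest summed share of 6 genes of resting chondrocytes (Ucma, Sfrp5, Clu, Pthlh, Cytl1 and Gas1) were called resting-list-rich, and the remaining 61 intermediate. These are ranges of a score, not cell types. The Col10a1 share ran from 0.0542% through a median of 0.457% to 3.48% in the first zone, the next spot outside was at 0.0461%, and 8 spots lay within 20% of this limit. For the resting list the limit fell between 0.206% and 0.203% and 28 spots lay within 20% of it. In 18 cartilage spots no Col10a1 UMI was found. The Col10a1-rich spots were deeper, with a median of 19340 UMIs against 11750 and 10337 in the other zones.

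Of 9558 genes tested between Col10a1-rich and other cartilage spots, 528 were at least 2-fold higher (5.52%) and 567 lower (5.93%). Ihh had the highest ratio among the genes with at least 50 UMIs in cartilage spots. It ranged from 0 to 2042 CPM over the 27 Col10a1-rich spots with a median of 677 and 4 spots at 0, it was at 0 in all 20 resting-list-rich spots, and 55 of 61 intermediate spots had none. Its pooled ratio was 114 (51.7 to 312), from 347 against 6 UMIs. Pth1r, the receptor for the other arm of the loop, ranged from 119 to 3906 CPM in the Col10a1-rich zone with a median of 1596, against medians of 178 and 221 in the other zones, and its ratio was 7.12 (6.02 to 8.47). All 4 genes of the prehypertrophic list were higher, with Panx3, a channel gene, at 28.8 and Mef2c, a transcription factor of hypertrophy, at 3.1.

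Enzyme and transporter genes were among the highest 15 of that zone. Alpl, tissue non-specific alkaline phosphatase, had a ratio of 15.8 (10.6 to 24.5) and Phospho1, a phosphatase of matrix vesicles, one of 15.2 (11.5 to 20.4). Aldh1a3, an enzyme of retinoic acid synthesis, stood at 45.3, the crosslinking enzyme gene Loxl4 at 26.6, the carbonic anhydrase gene Car12 at 20.6 and the citrate transporter gene Slc13a5 at 16.6. The other genes of the highest 15 were Fxyd2, Il17b, Sgms2, Unc5b, Ppa1, Irx5 and Gcnt2, with ratios from 12 to 24.9. The osteoblast factor Sp7 was at 9.58, Runx3 at 4.96 and Runx2 at 4.68, whereas Runx2 had passed no limit between cartilage and reference. Among matrix genes Hapln1 at 3.41 and Comp at 2.26 were higher, and the collagens as a list were at 0.950 with none of 6 past a limit. Fgfr3, of the columnar list, was at 3.66 and Prkg2, which encodes a kinase below the natriuretic peptide receptor, at 21.6 from 33 against 3 UMIs.

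Genes of several lists were lower in the Col10a1-rich zone. The list of resting chondrocytes, whose share chose the resting-list-rich spots among the others, had a ratio of 0.298 with 4 of 6 lower, and the list of superficial chondrocytes one of 0.329 with 5 of 7 lower. In the tendon and fibrous list, summed at 0.501, 4 of 8 were lower, and in the WNT list 4 of 9 tested were lower and 2 higher. Ucma was at 0.265 (0.220 to 0.316), Prg4 at 0.133 (0.0802 to 0.210), the BMP antagonist Grem1 at 0.121 and the WNT inhibitor Wif1 at 0.266. Cytl1, a cytokine-like gene of cartilage, was at 0.0914 from 2 against 43 UMIs. The cell division list was at 0.813 (0.681 to 0.967) with none of 9 past a limit.

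**Figure D3:**
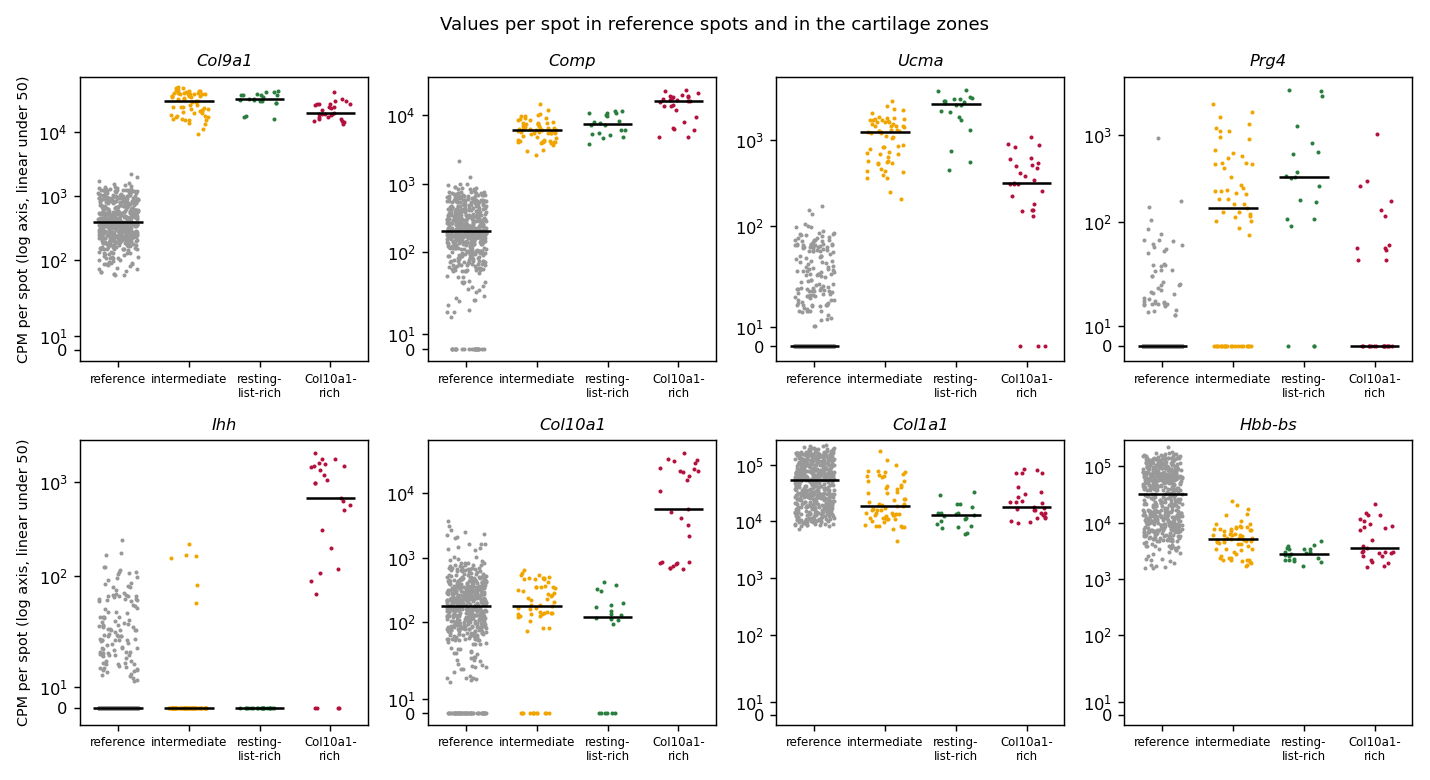
CPM per spot of 8 genes in the 542 reference spots and in the 3 cartilage zones (vertical log axis that is linear under 50 CPM), with 1 point per spot and a bar at the median. Col9a1 and Comp stand above the reference in every zone, Ucma and Prg4 have their lowest cartilage medians and Ihh and Col10a1 their highest medians in the Col10a1-rich zone, and Hbb-bs is lower in all 3 zones.

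The resting-list-rich zone differed from the rest of the cartilage in fewer genes, with 214 of 9558 higher (2.24%) and 219 lower (2.29%). Beside Ucma, which helped choose it, the superficial zone gene Prg4 was 2.98-fold higher (2.35 to 3.77), with a median of 327 CPM, a highest spot of 3291 and 3 spots at 0. Of the 7 genes of the superficial and articular list only Prg4 and Creb5 were higher, and the list summed to 1.27 (1.10 to 1.46). Among genes with at least 50 UMIs in cartilage spots, Vit, which encodes the matrix protein vitrin, had the highest ratio, 4.10 (2.46 to 6.78). The limb transcription factor gene Tbx4 was at 2.60. Calml3, Mmp16, Vill, Slc27a1, Slc27a6, Zfp740, Strn4, Tnrc6b, Prpf39, Jak2, Mpped2 and Stxbp6 completed the highest 15 with ratios from 2.45 to 2.96, most of them from fewer than 30 UMIs in the zone. Erythroid, osteoclast and muscle sums were at 0.532, 0.536 and 0.482 of the other cartilage spots, and Col1a1 at 0.417.

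The intermediate zone had 267 of 9558 genes higher (2.79%) and 387 lower (4.05%). Grem1 led the genes with at least 50 UMIs in cartilage spots, at 7.50 (4.28 to 14.2). The matrix protein genes Dpt, Col14a1, Col8a1, Fndc1, Abi3bp and Cilp2 had ratios from 2.90 to 3.36, and 5 of 8 genes of the tendon and fibrous list were higher. The superficial and articular list summed to 1.94 (1.73 to 2.19), with Abi3bp and Thbs4 of its 7 genes higher and Prg4 past no limit. Chil1, a secreted chitinase-like protein gene, was at 4.46, and Setbp1, Dbp, Id2, C1qtnf2 and Grk5 at 3.00 to 3.47. The muscle myosin Myh4 was also among the 15, at 3.25, the muscle list summed to 1.91 and the erythroid list to 1.56 of the other cartilage spots, and the part of adjoining tissue in the zone was not tested.

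Spots of one zone lay together to different degrees. Among adjacent cartilage spots, 78.8% of the neighbours of Col10a1-rich spots were of the same zone (78 of 99), 69.9% of those of intermediate spots, and 34.4% of those of resting-list-rich spots, in a class where the zones hold 25%, 56.5% and 18.5% of spots. The median distance to a reference spot was 5 steps for the Col10a1-rich zone, 7.5 for the resting-list-rich and 12 for the intermediate. By median the Col10a1-rich spots were thus nearest to the low-Col2a1 tissue. The ranges overlapped, in the same order, at 2 to 16, 3 to 16 and 3 to 18 steps. The median share of the rule genes, which define the reference, was also lowest in the Col10a1-rich zone, at 16.8% against 25.9% and 22.9%. Of the other zones, 3 resting-list-rich and 12 intermediate spots touched a Col10a1-rich spot.

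Pooled over pieces by distance from the Col10a1-rich spots, Ihh was lower from 1 step on. It stood at 935 CPM (839 to 1039) in the zone itself, at 20.4 (4.21 to 59.7) in the 15 spots at 1 step, at 0 in the 17 spots at 2 steps, at 8.47 at 3 steps and at 6.53 at 4 or more. Other genes of the zone fell over the same step. Pth1r dropped from 1720 to 259 CPM and Hapln1 from 9530 to 2812 over the first step, and both then stayed at 209 to 272 and 2542 to 3126. In the piece of 42 spots alone, Hapln1 went on falling, from 4871 CPM (4075 to 5776) at 1 step to 2667 (2385 to 2973) at 4 or more. Only 2 of the 15 spots at 1 step lay in that piece, and the others lay in the pieces of 38 and 15. In those pieces the Col10a1-rich spots themselves had Ihh at only 0 and 53.5 CPM and Pth1r at 274 and 268 CPM. The pooled first step therefore mixes a contrast between pieces with a fall inside the piece of 42. In that piece Pth1r was at 1887 CPM in the zone and 369 at 1 step.

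Prg4 went the other way and further. It was at 53.9 CPM (32.9 to 83.3) in the zone, 225 at 1 step, 183 at 2, 449 at 3 and 588 (505 to 680) at 4 or more. For all genes, the 34 spots at 4 or more steps include the piece of 8 spots at the opposite end of the section. That piece held no Col10a1-rich spot, lay up to 52 steps away and had 102 CPM of Prg4. The superficial and articular list, which includes Prg4, did not rise step by step. Over the same distances it was at 499, 1614, 980, 1601 and 1715 CPM. Ucma was at 380 CPM in the zone, 1239 at 1 step, 1581 at 2 steps and 1405 at 4 or more, whereas in the piece of 42 spots it was highest at 1 step, at 2140 (1625 to 2767), in 2 spots. Matn1 was at 2547 CPM in the zone, peaked at 4984 (4642 to 5345) at 2 steps and was at 3855 at 4 or more. The cell division list was highest at 2 steps, at 696 CPM (572 to 839), but this interval overlapped those at 1 step (523 to 791), 3 steps (432 to 711) and 4 or more (487 to 659), so no band of dividing cells was resolved at this depth. Mki67 alone ran from 140 to 253 CPM.

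**Figure D4:**
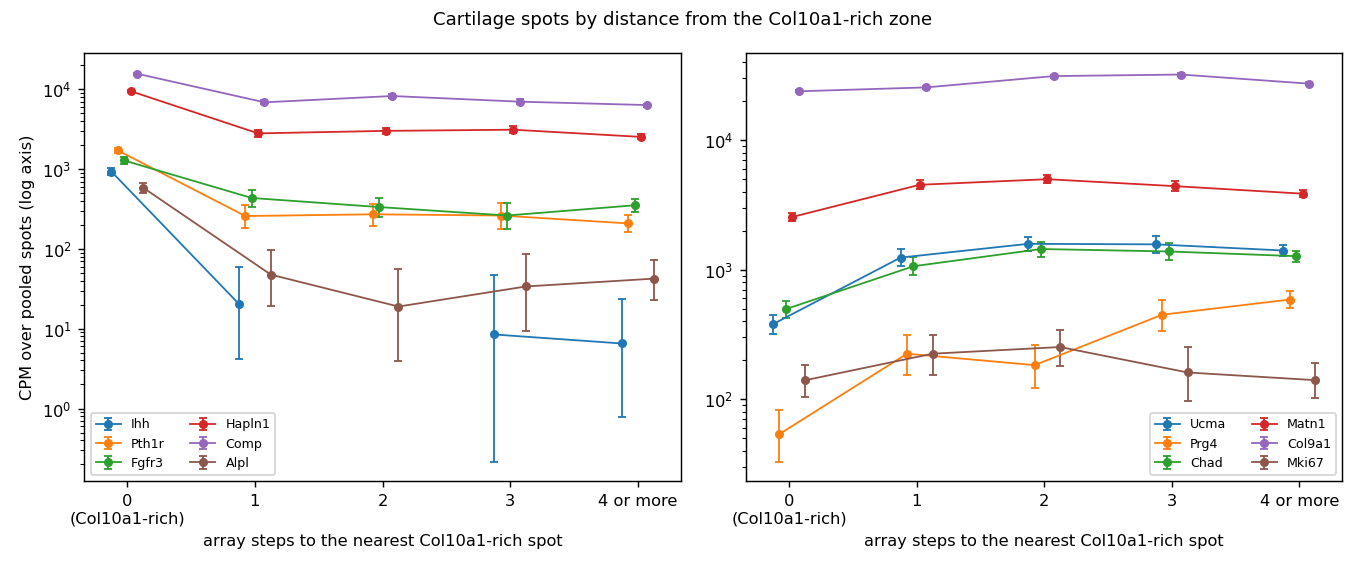
CPM over the pooled cartilage spots (vertical log axes) by array steps from the nearest Col10a1-rich spot, with exact 95% intervals for counting error, for genes that were higher in that zone (left) and for other genes (right). Ihh is at 935 CPM in the zone and 20.4 CPM at 1 step, and has no point at 2 steps because no UMI was counted. Prg4 is at 53.9 CPM in the zone and 588 CPM at 4 or more. The points pool pieces, and only 2 of the 15 spots at 1 step lie in the piece of 42. The last point includes the piece of 8 spots at the opposite end of the section.

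The order of Ihh and Prg4 was also present in the piece of 42 spots, which held 16 Col10a1-rich, 11 resting-list-rich and 15 intermediate spots. Its Col10a1-rich spots lay at columns 110 to 116 and the others at columns 117 to 127. The first had 1039 CPM of Ihh (926 to 1160). None was counted at 1, 2 and 3 steps, and 16.4 CPM at 4 or more. Prg4 in this piece was at 19.97, 0, 37.9, 280 and 1173 CPM over the same distances. The 2 and 3 spots at 1 and 2 steps are few, and their zeros allow up to 136 and 140 CPM.

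The zones were unevenly spread over the pieces. The piece of 38 spots had the highest share of the rule genes, a median of 30.5% against 19.6% in the piece of 42, 15.4% in the piece of 15 and 15.6% in the piece of 8. It held 1 Col10a1-rich, 9 resting-list-rich and 28 intermediate spots and had the highest Matn1, 6655 CPM (6368 to 6952), against 2563 to 2655 CPM in the other 3. Its Ihh level of 9.87 CPM (2.04 to 28.8) was like that of the reference, at 9.97, whereas the piece of 42 had 610 (544 to 681). The 5 Col10a1-rich spots of the piece of 15 held 2 UMIs of Ihh, 53.5 CPM (6.48 to 193), and 776 CPM of Col10a1, so they met the limit with little of either. The 5 spots of the 3 small pieces were all Col10a1-rich and had the highest Col10a1, 32560 CPM, with 1272 CPM of Ihh (875 to 1786).

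Col1a1 differed between pieces as well. It was at 18528 CPM in the piece of 42, 19702 in the piece of 38, 42413 in the piece of 8 and 91496 in the piece of 15, where it exceeded the 60571 CPM of the reference. Hbb-bs in the same order was at 2806, 4116, 12143 and 7588 CPM. The 2 pieces with the lowest share of the rule genes thus had the most Col1a1 and Hbb-bs, the osteoblast list as a whole stood at 1.38 times the reference in the piece of 15, and the part of adjoining bone, fibrous tissue and marrow in them was not tested.

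**Figure D5:**
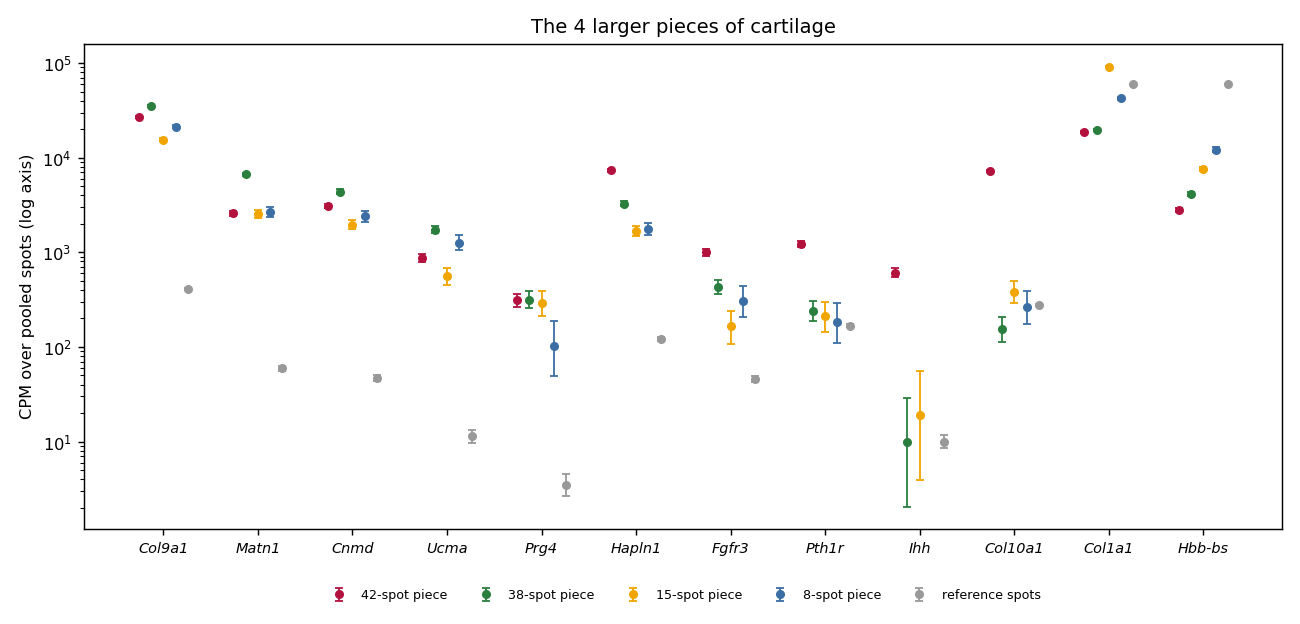
CPM over the pooled spots of the 4 pieces of at least 8 spots and of the reference (vertical log axis) for 12 genes, with exact 95% intervals for counting error. Col9a1, Matn1, Cnmd and Hapln1 stand above the reference in each piece, whereas Ihh, Pth1r and Col10a1 are highest in the 42-spot piece and Ihh has no point in the 8-spot piece because no UMI was counted.

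Much of the Col10a1 signal lay outside the class. Of the spots in which Col10a1 took at least 1% of UMIs, 12 were cartilage and 43 were not, and 16 of the 43 touched a cartilage spot. In these 43 spots Col2a1 and Acan took 1.93 to 14.0% of UMIs with a median of 9.07%, Ihh stood at 755 CPM, and Ibsp, a bone sialoprotein gene, and the protease gene Mmp13 at 1539 and 2228 CPM. The rule, which ranks spots by type II collagen and aggrecan, therefore left most Col10a1-rich tissue out. In the class as a whole the hypertrophic list had a ratio of 0.815 (0.794 to 0.836), with Col10a1 at 15.4 and Vegfa higher, Alpl at 0.919, and Ibsp, Mmp13 and Spp1, which encodes osteopontin, lower at 0.181, 0.152 and 0.137. The prehypertrophic list had a ratio of 3.92, the resting list of 9.48, the superficial and articular list of 4.71 and the columnar list of 35.4. Matn3, also a member of the matrix protein list, gave 3563 of the 5464 UMIs of the columnar list. Within the class that list was highest in the Col10a1-rich spots, at 7185 CPM against 3649 to 4181 CPM farther away, so it marked no separate zone. The prehypertrophic ratio came from the piece of 42 and the small pieces, since it was 0.878, 0.827 and 0.901 in the pieces of 38, 15 and 8. In the 5% of spots with the highest share of the rule genes, Col10a1 stood at 0.667 and Panx3 at 0.468 of the reference, below it.

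Bone-forming spots of the section served as a second comparison. They were the 108 passing spots with the highest share of Bglap, Bglap2 and Ibsp, at 0.831% or more, and 0 of them were cartilage spots. Of 11911 genes tested, 1622 were at least 2-fold higher in cartilage (13.6%) and 1559 lower (13.1%). The cartilage lists kept high ratios, 12.5 for the collagens with 5 of 6 higher and 25.2 for the matrix proteins with 18 of 18. Prg4 had a ratio of 116 (49.0 to 358), Ucma of 66.0 (46.7 to 96.4), Col9a1 of 37.7 and Sox9 of 20.9 (16.9 to 26.1).

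In the other direction, all 7 tested osteoblast and osteocyte genes and all 8 osteoclast genes were lower than in bone-forming spots. Bglap, Bglap2 and Ibsp, which chose those spots, were left out. Since bone genes made that choice, the lower osteoblast genes describe it and support nothing. Dmp1 was 17.6-fold lower, Spp1 14.2-fold, Acp5 13.9-fold and Ctsk 10.6-fold. Col1a1 was 3.35-fold lower and Sp7 2.90-fold, whereas Alpl at 0.514 and Runx2 at 0.744 passed no limit. Col10a1 was 10.2-fold higher in cartilage.

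No other section held such spots. The others were fetal livers at embryonic days 13.5 and 14.5, spleens, and leg bones of older mice. Some of the livers and spleens were from C1qa knockout mice, so tissue, age or genotype differed from the P8 section. Over the 13 others, Col2a1 and Acan together ranged from 0.183 to 454 CPM, against 27842 CPM in the P8 section, and no passing spot reached the limit of the class. The highest of them was a fetal liver section, with a highest spot of 1.60%. Of both other leg bone sections, that of an 89-week-old mouse had 13.4 CPM. The other, from an adult mouse and labelled EDTA, had 188 CPM from 7 UMIs in 15 passing spots.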

How the data were processed

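A formalin-fixed leg bone section was profiled on 1 Visium array. The authors deposited raw UMI counts per gene and spot, with spot positions, and the submitters' processing notes name Space Ranger and mm10. The matrix header names Cell Ranger 4. Features marked deprecated (304 of 32589, 0.853% of tissue UMIs) and the rule genes were left out of totals, and 38 duplicated symbols were not named. A few genes that meet the naming rule below are not reported here. Counts were summed per class with Python 3.11.15, numpy 2.4.6, scipy 1.17.1, pandas 2.3.3 and matplotlib 3.10.9. Genes with at least 10 UMIs over both classes were compared by the ratio of CPM with an exact conditional binomial 95% interval. A ratio of at least 2 or at most 0.5 whose interval excluded 1 was called. The steps were tested on simulated data. Steps on the array count moves between adjacent positions, and a piece is a set of adjacent cartilage spots.

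Genes were named by rule: the 25 highest and 10 lowest ratios with at least 100 UMIs, the 15 highest per zone with at least 50 UMIs, and list members that were called or define a list. The members and lists were chosen with earlier results of these data known. Alternatives were other shares of spots, another reference, spots chosen by type IX collagen genes, thinning to 2000 UMIs, means of spot CPM, centring on the median gene, all in-tissue spots, no count minimum, other zone scores, and, chosen after seeing the data, single pieces and the class without the last 2 array columns. Doublets do not apply to spots, and no deconvolution was run.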

Additional observations from a re-analysis of the deposited data

How the results depend on the processing

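With 1 section, nothing here measures the spread between animals, and calls reflect counting depth as well as size. Of 4132 genes called between cartilage and reference, 2057 higher and 2075 lower, thinning every spot to 2000 UMIs left 2054 (1156 and 898). The piece of 15 spots alone gave 2249 (1241 and 1008) and the piece of 8 gave 1648 (1115 and 533), from fewer counts. The share of calls that were higher moved from 49.8% to 56.3% when thinned and 67.7% in the piece of 8, and lay between 46.3 and 55.2% otherwise. Thinning also left 239 of 1095 calls for the Col10a1-rich and 111 of 433 for the resting-list-rich zone. The counts of called list members and of calls against bone-forming spots each stayed within 1.5 times under the alternatives run.

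The size of ratios moved more often than their direction: 237 of 420 alternatives for lists and 620 of 1595 for genes moved the value with its direction kept. With all other passing spots as reference, 22 of 30 lists and 76 genes moved, with Col9a1 at 16.8 and Comp at 10.7. The values on the other side of 1 follow, and their cause was not tested. In the top 5% of spots Col10a1 stood at 0.667 and Panx3 at 0.468. The hypertrophic list was at 1.07 in spots chosen by type IX collagen genes and 1.29 in the piece of 42. In the piece of 38, the prehypertrophic list was at 0.878, Col10a1 at 0.558, Ihh at 0.990 and Panx3 at 0.211. In the piece of 15, that list was at 0.827, the osteoblast list at 1.38, C1qa at 1.02, Gli1 at 0.626 and Panx3 at 0.570. In the piece of 8, the list was at 0.901, Col10a1 at 0.958 and Panx3 at 0.785, and Ihh and Nkx3-2 had 0 UMIs. No paired analysis was possible because only 1 section was used.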
